A study of Mus musculus with 2 samples.

Results

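The genes described here are 38 members of the unfolded protein response and the linked integrated stress response, followed through mouse prostate cells of a transgenic cancer model. The members were listed by name for their known roles, with earlier results of these data known. All 38 were found among the 19320 features of the single-cell table. The data came from 2 droplet libraries of prostate tissue, 1 labelled prostatic intraepithelial neoplasia (PIN) and 1 labelled prostate cancer (PCa), each a single sample (hARtg-Osr1Cre_PIN and hARtg-Osr1Cre_PCa). Per the study's methods, both came from mice that carried a human androgen receptor transgene, hARtg, which Osr1-Cre recombinase switched on, together with the R26 mTmG reporter, which turns recombined cells and their descendants green (mGFP), on a mixed C57BL/6 and 129S1/SvImJ background. The PCa tissue was taken from older mice than the PIN tissue, and no library of mice without the transgene was analysed here. Osr1-Cre marks the lineage of cells that once expressed Osr1, which the study saw in mesenchymal and epithelial cells before birth. In the prostate after birth, the study saw no mGFP together with the stromal stains vimentin or smooth muscle actin. It placed mGFP transcripts in luminal and basal epithelial cells. The features named EGFP and ARQ in the table were read as the mGFP reporter and the androgen receptor transgene.

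Each cell's column name ended in 1 or 2. The labels do not say which ending is PIN and which is PCa, so the 2 groups are called set 1 and set 2, and no PIN to PCa difference is given. Set 1 held 6332 cells with a median of 17235 unique molecular identifiers (UMIs, counted RNA molecules) per cell, and set 2 held 9410 cells with a median of 14825 UMIs. The sets shared 67 barcode sequences. After removal of doublet calls, cells were clustered without the member genes, the other stress genes and the reporters, and clusters were named from marker genes. Luminal-like cells, which carry the secretory function of the gland, numbered 2521 in set 1 and 7760 in set 2, and basal-like cells numbered 1699 and 361. Proximal or urethral luminal-like cells (598 and 213), leukocyte-like cells (982 and 281) and endothelium-like cells (40 and 170) were fewer, and 3 clusters with 337 and 450 cells stayed unnamed. In set 1 the 10 luminal markers summed to 27767 counts per 1000000 UMIs (CPM) in the luminal-like class and 7819 CPM in the basal-like class, where the 7 basal markers summed to 1006 and 14152 CPM. In set 2 the luminal sums were 19793 and 8281 CPM and the basal sums 59.2 and 10093 CPM. The luminal-like cells of the sets were unlike in make-up: 47.0% of those in set 1 lay in cluster 3 and 41.3% of those in set 2 in cluster 0, which held 3 cells of set 1.

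Levels are given in CPM, the UMIs of a gene summed over the cells of a group and scaled to the total UMIs of that group. Intervals in parentheses are exact Poisson intervals for a level and conditional binomial intervals for a log2 ratio, and they cover counting error only. With 1 library per label there was no replicate, so no test of a difference was made. For the 303 member levels of at least 100 CPM in epithelial clusters, the median counting interval was ±2.65% of the level and the widest was ±14.2%. A member entered a comparison when it reached 5 CPM over both sides, and a ratio of at least 2-fold in either direction was counted. The first count of members in each comparison stands beside the share of all genes tested that differed as far in that comparison.

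Proteins bound for secretion are folded in the endoplasmic reticulum (ER). When unfolded proteins build up there, the sensors IRE1 (Ern1), PERK (Eif2ak3) and ATF6 start the unfolded protein response. IRE1 splices the mRNA of Xbp1, ATF6 is cleaved into a transcription factor, and PERK slows translation while favouring that of Atf4. ATF4 is also reached through other kinases that sense amino acid shortage, haem shortage or viral RNA, and this wider circuit is the integrated stress response. XBP1 and ATF6 raise chaperones and degradation factors, and ATF4 raises genes of amino acid supply and, under prolonged stress, Ddit3 (CHOP). The prostate gland secretes large amounts of protein, so its luminal cells rely on this machinery in health. UMI counts of mRNA do not report Xbp1 splicing, ATF6 cleavage or ATF4 protein.

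Both arms of the response act through short promoter elements. Promoter letters from 250 bases upstream to 50 bases downstream of the start were taken from RefSeq (GRCm38.p6, the mm10 assembly) for the 33 members with an entry, and motifs were searched on both strands. The ER stress response element (ERSE), read by ATF6 and XBP1 beside the CCAAT factor, was searched as CCAAT, any 9 bases and CCACG. It stood in 9 of the 33 promoters (27.3%) and in 37 of the 27025 genes with an entry (0.137%), these 9 included. The members were listed for known roles in this response, so the shares describe them and are not a test. The related ERSE-II, searched as ATTGG, any base and CCACG, stood in 2 members (6.06%) and in 12 genes (0.0444%). The unfolded protein response element TGACGTGG stood in no member, and in 193 genes (0.714%). A C/EBP-ATF response element, by which ATF4 acts, was searched as ATTGCATCA and stood in 1 member, Nupr1 (3.03%), and in 60 genes (0.222%). Only this exact form was searched, so a member without it may hold another form. The promoters of Chac1 and Herpud1 hold TTGCATCA, which lacks the first base, and were not counted. A match is a description of letters, and binding was not measured. The ERSE and ERSE-II matches are listed below, and a link to the luminal results was not tested. Each is written 5′ to 3′ on the strand of the gene with the matched bases in capitals. An ERSE match to the opposite strand therefore begins with CGTGG.
Hspa5 (chr2:34772025-34772043, + strand, first base 65 bases upstream): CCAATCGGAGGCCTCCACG
Pdia6 (chr12:17266491-17266509, + strand, first base 98 bases upstream): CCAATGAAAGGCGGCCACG
Dnajc3 (chr14:118937827-118937845, + strand, first base 105 bases upstream): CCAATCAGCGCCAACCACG
Syvn1 (chr19:6046532-6046550, + strand, first base 44 bases upstream): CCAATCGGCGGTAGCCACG
Canx (chr11:50325800-50325818, - strand, first base 145 bases upstream): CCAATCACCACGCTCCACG
Hsp90b1 (chr10:86705638-86705656, - strand, first base 212 bases upstream): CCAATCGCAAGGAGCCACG
Hsp90b1, the other site (chr10:86705533-86705551, - strand, first base 107 bases upstream): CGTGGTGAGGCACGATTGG
Derl3 (chr10:75893242-75893260, + strand, first base 156 bases upstream): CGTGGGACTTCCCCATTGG
Creld2 (chr15:88819520-88819538, + strand, first base 126 bases upstream): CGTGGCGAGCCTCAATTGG
Calr (chr8:84847075-84847093, - strand, first base 162 bases upstream): CGTGGTCGACCCTCATTGG
Herpud1, ERSE-II (chr8:94386377-94386387, + strand, first base 52 bases upstream): ATTGGGCCACG
Dnajb11, ERSE-II (chr16:22857852-22857862, + strand, downstream of the start): ATTGGCCCACG

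Longer stretches are shown for Hspa5, Pdia6 and Herpud1, whose levels separated luminal clusters, and for Nupr1, the member with the widest range. Each line gives the 150 bases that end at the transcription start, read along the gene, with the ERSE, the ERSE-II or the C/EBP-ATF match in capitals.
Hspa5, chr2:34771940-34772089, + strand: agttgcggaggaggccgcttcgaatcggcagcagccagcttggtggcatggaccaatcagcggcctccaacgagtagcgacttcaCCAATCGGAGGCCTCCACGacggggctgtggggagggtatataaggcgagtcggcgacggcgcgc
Pdia6, chr12:17266439-17266588, + strand: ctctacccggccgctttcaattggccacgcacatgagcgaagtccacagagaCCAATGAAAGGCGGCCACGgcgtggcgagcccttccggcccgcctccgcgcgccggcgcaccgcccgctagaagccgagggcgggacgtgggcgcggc
Herpud1, chr8:94386279-94386428, + strand: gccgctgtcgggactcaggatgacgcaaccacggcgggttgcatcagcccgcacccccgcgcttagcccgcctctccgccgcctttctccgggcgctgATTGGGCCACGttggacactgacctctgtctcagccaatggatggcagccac
Nupr1, chr7:126625471-126625620, - strand: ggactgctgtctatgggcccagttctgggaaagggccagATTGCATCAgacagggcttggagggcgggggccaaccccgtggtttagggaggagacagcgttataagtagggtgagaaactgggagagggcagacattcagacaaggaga

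Highest and lowest levels are given over epithelial clusters unless another cluster is named. Across the 17 combinations of epithelial cluster and set with at least 50 cells, the members differed widely in how far they ranged. Atf4, the transcription factor of the integrated stress response, kept to 576 to 1083 CPM, with a median of 851 CPM and a highest to lowest ratio of 1.88. Xbp1 ranged from 167 to 367 CPM and Canx from 172 to 379 CPM, each by a ratio of 2.19 or 2.20. At the other end, Nupr1, a small stress-induced chromatin protein, ran from 14.9 CPM in luminal cluster 5 of set 2 to 4416 CPM in proximal cluster 9 of set 2. Derl3, a derlin of the degradation machinery, ran from 1.51 CPM in basal-like cells of set 2 to 264 CPM in luminal cluster 8 of set 1. Sdf2l1 (ratio 33.4), Chac1 (25.6), Pdia4 (20.5) and Pdia6 (19.6) also spanned more than 15-fold.

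**Figure D1:**
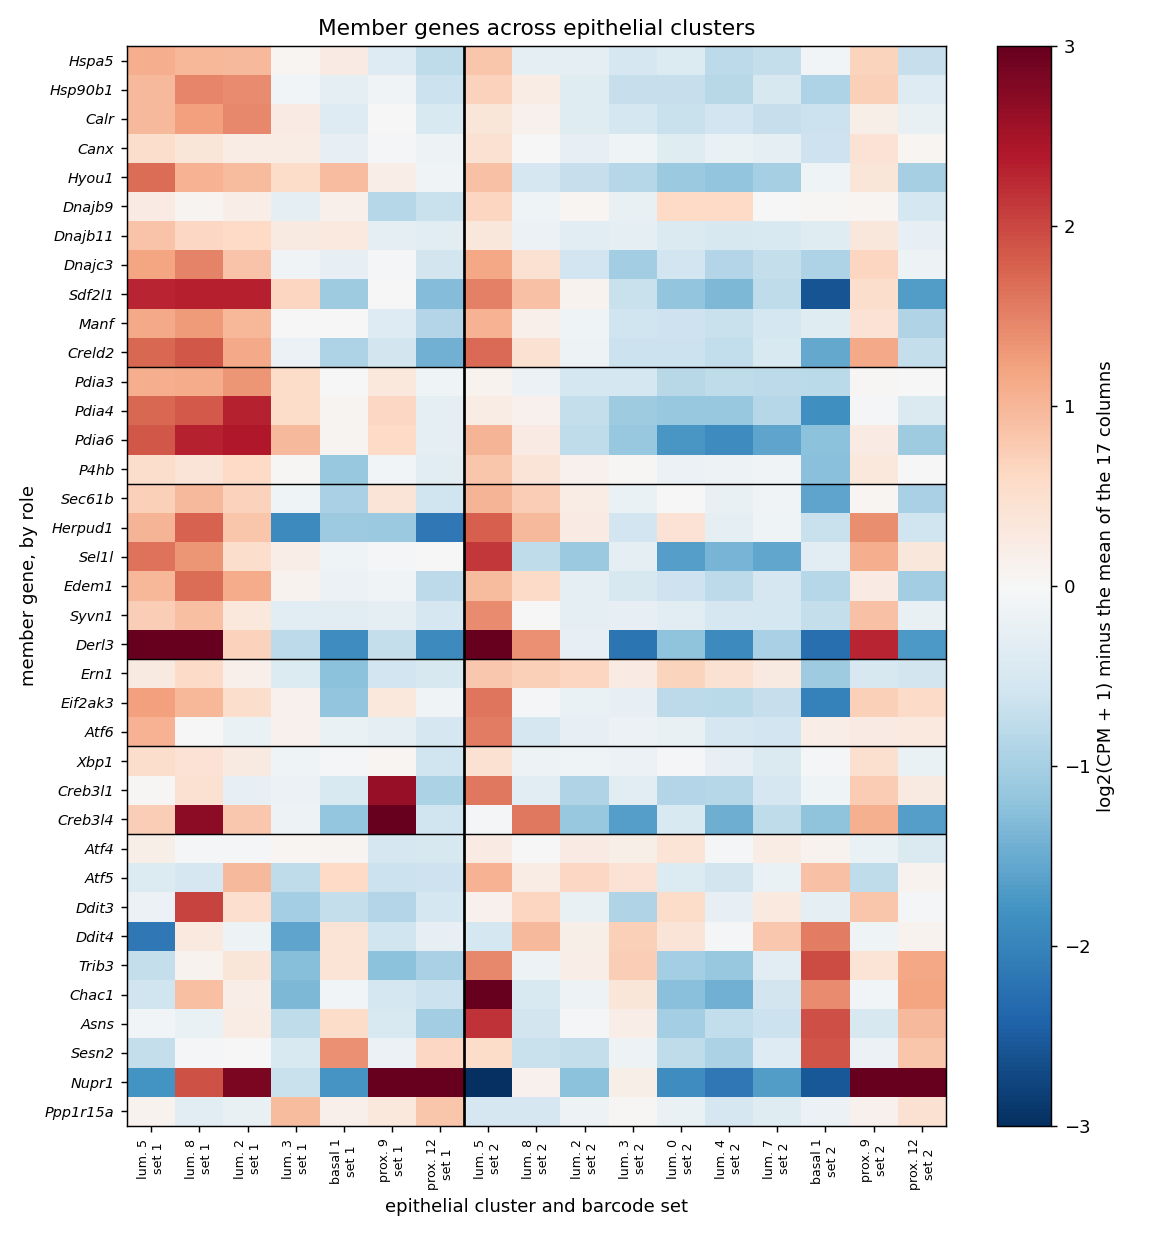
Heat map of 37 member genes (rows, by role; Ern2, near 0 throughout, is left out) in 17 combinations of epithelial cluster and set (columns), coloured by log2(CPM + 1) minus the mean of the row, with colours capped at 3 units. The columns of clusters 5, 8 and 2 of set 1 and cluster 5 of set 2 are red for nearly all chaperones, isomerases and degradation factors, while Chac1, Asns and Trib3 are red in cluster 5 and in basal-like cells of set 2, and Nupr1 in proximal clusters 9 and 12.

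The 7 luminal-like clusters were led by different genes: cluster 5 by Ren1 and Tgm4, cluster 8 by Msmb and Wfdc3, cluster 2 by Svs5 and Pate4, cluster 0 by Gulo and Npl, cluster 4 by Defa22 and Defa21, cluster 3 by Krt6a and Clu, and cluster 7 by the mitotic genes Ube2c and Birc5. Msmb, Tgm4, probasin and 5 other secretory products summed to 59535 CPM in cluster 8 and 16416 CPM in cluster 5 of set 1, against 1321 CPM in cluster 3. In set 2 the sums were 22276 CPM in cluster 5 and 11809 CPM in cluster 8, against 724 CPM in cluster 0 and 484 CPM in cluster 4. In set 1, among the 4 luminal clusters with at least 50 cells, cluster 8 held the highest level of 16 members, cluster 2 of 11, cluster 5 of 10 and cluster 3 of 1. In set 2, among 7 such clusters, cluster 5 held the highest level of 31 of the 38 members, cluster 8 of 4, cluster 3 of 2 and cluster 0 of 1. The share of all genes that peaked in each cluster was not computed, so these counts stand without a background. The counting intervals of the highest and the next cluster overlapped in set 1 for Sdf2l1, P4hb, Trib3, Sesn2, Dnajb9, Ern2 and Creb3l1. In set 2 they overlapped for Dnajb9, Pdia4 and Ern1 of cluster 5, Ern2, Ddit3 and Ddit4 of cluster 8, and Nupr1 of cluster 3. All 38 members together made up 25912 CPM in cluster 8 and 25600.3 CPM in cluster 2 of set 1, and 7477 CPM in cluster 4 of set 2.

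The chaperones were highest in the secretory clusters. Hspa5 (BiP), the main Hsp70 chaperone of the ER lumen, stood at 5895 CPM (95% interval 5858 to 5932) in cluster 5 of set 1, 5471 CPM in cluster 8, 5401 CPM in cluster 2 and 2882 CPM in cluster 3. In set 2 it stood at 4887 CPM (95% interval 4835 to 4941) in cluster 5, and the other 6 luminal clusters lay between 1587 CPM (cluster 4) and 2285 CPM (cluster 2). Cluster 5 thus stood apart from the other luminal clusters of set 2. Proximal cluster 9 is not among these. Its median cell in set 2 had 32.8 Hspa5 UMIs per 10000, against 44.5 in cluster 5 and 17.3 in cluster 2. All 38 members summed to 19588 CPM in cluster 9 and 19515 CPM in cluster 5 of set 2. Hsp90b1 (GRP94), the Hsp90 of the ER, likewise separated the clusters, with 2247 CPM in cluster 8 and 774 CPM in cluster 3 of set 1, and 1325 CPM in cluster 5 and 459 CPM in cluster 4 of set 2. Sdf2l1, a partner of BiP in its folding cycle, had 329, 326 and 319.6 CPM in clusters 2, 8 and 5 of set 1 and 184 CPM in cluster 5 of set 2, against 27.7 CPM in cluster 0. Creld2, an ER-stress-induced secreted protein, was at 411 CPM in cluster 8 of set 1 and at 367 CPM in cluster 5 of set 2, and at 99.8 CPM in cluster 3 of set 1 and 72.4 CPM in cluster 0 of set 2. The J proteins split: Dnajc3 stood at 799.9 CPM in cluster 8 and 264 CPM in cluster 3 of set 1, whereas Dnajb9 stayed within 145 to 418 CPM over all epithelial groups. The lectin chaperone Calr, the nucleotide exchange factor Hyou1, the J protein Dnajb11 and the stress-induced factor Manf were likewise highest in clusters 2, 5 or 8 of set 1, with highest to lowest ratios over epithelial groups of 4.41, 8.12, 2.57 and 4.55.

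Disulfide isomerases, which make and reshuffle the disulfide bonds of secreted proteins, marked the secretory clusters of set 1 most. Pdia6 stood at 3536 CPM (95% interval 3496 to 3577) in cluster 2, 3327 CPM in cluster 8, 2465 CPM in cluster 5 and 1327 CPM in cluster 3 of set 1. In set 2 it stood at 1356 CPM (95% interval 1328 to 1384) in cluster 5, 795 CPM in cluster 8, and between 180.1 and 399 CPM in the other 5. Every luminal cluster of set 1 other than cluster 3 lay above every luminal cluster of set 2 for this gene. Pdia4 (ERp72) had 116 CPM in cluster 2 of set 1 and 13.5 CPM in cluster 2 of set 2, and Pdia3 (ERp57), which works with the lectin chaperones, had 1483 and 413 CPM there. P4hb, the founding isomerase, was the exception, with 483 and 348 CPM in cluster 2 and its highest epithelial level, 565 CPM, in cluster 5 of set 2.

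Among the factors of translocation and ER-associated degradation, Derl3 was the most restricted. It stood at 264 CPM (95% interval 256 to 272) in cluster 8 and 133 CPM (95% interval 127 to 138) in cluster 5 of set 1, and at 137 CPM (95% interval 128 to 146) in cluster 5 of set 2. Cluster 8 of set 2 had 30.2 CPM, cluster 2 had 18.5 and 9.17 CPM, and the other luminal clusters stayed at or below 6.02 CPM. Proximal cluster 9 of set 2 had 57.6 CPM (95% interval 48.8 to 67.4). Outside the epithelium, cluster 16 of set 1 (64 leukocyte-like cells, led by the immunoglobulin-related genes Jchain and Mzb1) had 227 CPM (95% interval 197 to 259.7), with 163 CPM of Sel1l, 524 CPM of Edem1 and 1132 CPM of Xbp1. Sel1l, Edem1 and Xbp1 were above their highest epithelial levels there, and Derl3 was below its own. Herpud1, an ER membrane protein that scaffolds the degradation complex, had 1552 CPM in cluster 8 and 121 CPM in cluster 3 of set 1, and 1573 CPM in cluster 5 of set 2. Sel1l and Syvn1 (HRD1), adaptor and ubiquitin ligase of that complex, were both highest among epithelial clusters in cluster 5 of set 2 at 126 and 104 CPM, where cluster 0 had 8.31 and 30.7 CPM. Edem1, which recognizes misfolded glycoproteins, was highest in epithelium at 213 CPM in cluster 8 of set 1, and Sec61b, a subunit of the translocation channel, at 865 CPM in cluster 5 of set 2.

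**Figure D2:**
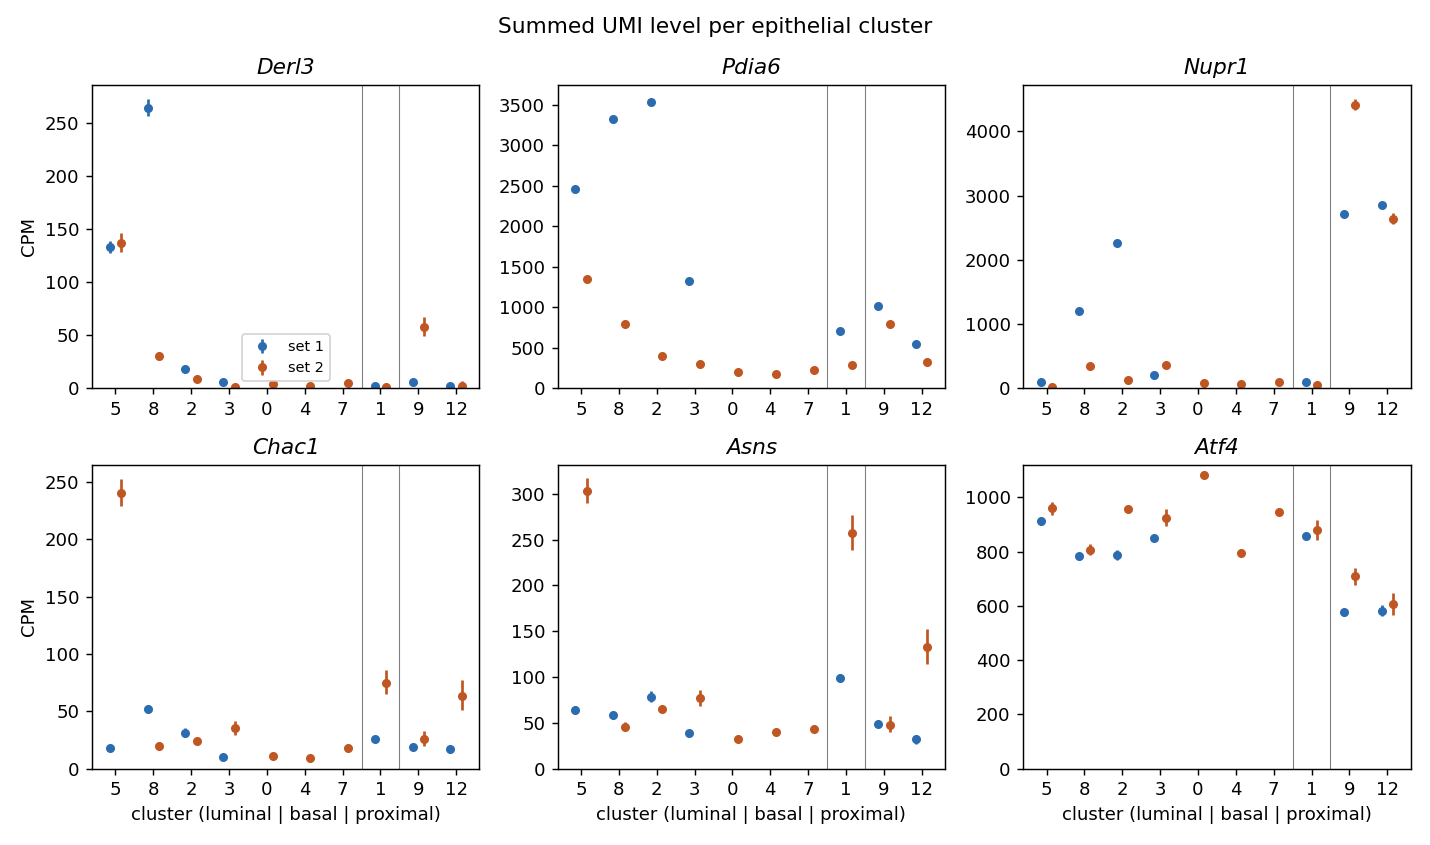
Levels of Derl3, Pdia6, Nupr1, Chac1, Asns and Atf4 (CPM, linear axes from 0) in the luminal, basal and proximal clusters, with set 1 in blue and set 2 in orange and exact 95% Poisson intervals as bars. Derl3 is high in clusters 5 and 8 of set 1 and cluster 5 of set 2, Chac1 and Asns stand out in cluster 5 of set 2, Nupr1 is highest in clusters 9 and 12, and Atf4 stays between 576 and 1083 CPM.

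Of the sensors, Ern1 (IRE1 alpha) ranged in epithelium from 10.0 CPM in basal-like cells of set 1 to 44.6 CPM in cluster 5 of set 2, and stood at 179 CPM in the unnamed cluster 14 of set 1. Among epithelial clusters, Eif2ak3 (PERK) and Atf6 were both highest in cluster 5 of set 2, at 77.3 CPM (95% interval 70.8 to 84.3) and 173 CPM (95% interval 163 to 183), and had 58.8 and 122 CPM in cluster 5 of set 1. Eif2ak3 stood at 106 CPM in cluster 16 of set 1. Ern2 (IRE1 beta), known from gut and airway epithelium, was near 0: its highest level in epithelium was 4.58 CPM (95% interval 3.52 to 5.86), in proximal cluster 9 of set 1. Xbp1, the target of IRE1, changed little between luminal clusters, from 232 to 367 CPM in set 1. Creb3l4, a CREB3-family factor known from androgen-responsive prostate cells, was at 32.1 CPM (95% interval 29.2 to 35.3) in proximal cluster 9 and 19.3 CPM in luminal cluster 8 of set 1, and at 5.61 and 8.52 CPM in the same clusters of set 2. Creb3l1 (OASIS), a relative active in matrix-secreting cells, was at 10.8 CPM or less in epithelium, and at 75.2 and 65.5 CPM in the unnamed cluster 10, which was led by Apod and Bgn and nearest to the fibroblast markers.

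The members of the integrated stress response were divided. Among luminal clusters of set 2, Atf5, Trib3, Chac1, Asns and Sesn2 were highest in cluster 5, as the chaperones were, and Atf4, Ddit3, Ddit4, Nupr1 and Ppp1r15a were highest elsewhere. Chac1, a glutathione-degrading enzyme induced by ATF4, stood at 240.3 CPM (95% interval 229 to 252) in cluster 5 of set 2 and at 17.6 CPM (95% interval 15.6 to 19.7) in cluster 5 of set 1. Asns (asparagine synthetase) stood at 303 CPM (95% interval 290.3 to 317) and 63.9 CPM (95% interval 60.1 to 67.9) in the same clusters, and the pseudokinase Trib3 at 38.1 and 7.81 CPM. In basal-like cells Asns was at 257 CPM (95% interval 238 to 277) in set 2 and 98.6 CPM (95% interval 94.5 to 103) in set 1, and Trib3 at 54.8 and 18.4 CPM. These 3 genes were thus high in cluster 5 and in basal-like cells of set 2, while Atf4 mRNA in the same groups was 959 and 879 CPM against 911 and 858 CPM in set 1. The Chac1 UMIs of cluster 5 of set 2 were spread over many cells: the tenth of cells with the highest shares held 32.1% of them, against 80.7% in cluster 5 of set 1, which had fewer Chac1 UMIs. Ddit3 (CHOP), the factor linked to stress-induced death, was highest among epithelial clusters in cluster 8 of set 1 at 259.7 CPM (95% interval 252 to 267), against 322 CPM in the unnamed cluster 14, and lay between 31.0 and 93.7 CPM in the luminal clusters of either set other than cluster 8. Ddit4 (REDD1), an inhibitor of mTORC1 signalling, ranged in epithelium from 4.54 CPM in cluster 5 of set 1 to 69.5 CPM in basal-like cells of set 2, and stood at 194 CPM in endothelium-like cells of set 2. Sesn2, a stress-induced sestrin, was highest among epithelial clusters in basal-like cells (51.5 and 73.7 CPM). Atf5, a relative of Atf4, was highest among epithelial clusters in cluster 5 of set 2 (98.2 CPM), and stood at 145 and 185 CPM in the unnamed cluster 10. Ppp1r15a (GADD34), which restores translation, was highest among epithelial clusters in cluster 3 of set 1 at 689.5 CPM, and stood at 875 CPM in cluster 10 of set 1.

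Nupr1 had a pattern of its own. It stood at 2716 CPM (95% interval 2689 to 2744) and 4416 CPM (95% interval 4337 to 4497) in proximal cluster 9 (led by Sbpl and Sbp) of sets 1 and 2, and at 2852 and 2639.8 CPM in proximal cluster 12 (led by Msln and Cxcl5). The name of cluster 9 is uncertain, since its secretory products summed to 143956 CPM in set 2. Without integration, a cluster led by Sbpl and Sbp, with 3 cells of set 1 and 88 of set 2, was named luminal. Among luminal clusters of set 1 Nupr1 was at 2268 CPM in cluster 2 and 1204 CPM in cluster 8, but at 91.8 CPM in cluster 5. In set 2 the luminal clusters ran from 14.9 CPM (cluster 5) to 361 CPM (cluster 3). To compare shares of cells at 1 depth, each cell was thinned to 3000 UMIs, which left out cells below that depth. After thinning, 82.8% of proximal-like cells of set 1 and 82.1% of those of set 2 had a Nupr1 UMI (93.8% and 87.8% before thinning). The thinned shares were 25.4% and 15.9% in luminal-like cells (52.8% and 45.8% unthinned), 10.9% and 7.69% in basal-like cells (27.7% and 12.5% unthinned) and 9.71% and 11.6% in leukocyte-like cells (15.9% and 22.4% unthinned). The basal share was thus close to that of leukocyte-like cells and is not read as expression by the class as a whole. Basal Nupr1 UMIs were uneven: the tenth of cells with the highest shares held 82.6% of them in set 1 and 94.4% in set 2. Thinning left out 16 and 87 luminal-like, 23 and 23 basal-like, 5 and 6 proximal-like, and 261 and 30 leukocyte-like cells, and median depths before it were 28883 and 16674 UMIs in luminal-like, 10861 and 5479 in basal-like and 3828 and 7024 in leukocyte-like cells. A Ddit3 UMI was found in 37.7% and 39.4% of thinned leukocyte-like cells, above the 14.7% and 17.1% of luminal-like and the 10.0% and 14.2% of basal-like cells. Unthinned Ddit3 shares were 52.4% and 57.3%, 57.3% and 56.8%, and 31.5% and 26.0% in the same order. For Ern2, 0 of 2505 thinned luminal-like cells of set 1 and 0 of 7673 of set 2 had a UMI, which allows shares of cells with a UMI of up to 0.120% and 0.0391%.

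Luminal-like and basal-like cells were compared within each set, to ask how far the machinery follows the secretory cell type. In set 1, 36 members passed the filter, of which 18 were at least 2-fold higher in luminal-like cells and 3 at least 2-fold lower, where 24.9% and 8.35% of all genes tested moved as far. Fewer members were higher without integration. More were lower with equal cell weights or with scaling by the trimmed mean of M values. In set 2, 9 of 35 were higher and 5 lower, beside 29.8% and 13.9% of all genes. The median member log2 ratio was 0.95 in set 1 and 0.18 in set 2, and the medians of all genes were 0.22 and 0.25. The median of the members in set 2 was thus close to that of all genes. By role, 5 of 11 chaperones, 3 of 4 isomerases and 5 of 6 translocation and degradation factors were at least 2-fold higher in set 1, against 2, 2 and 2 in set 2, and none was 2-fold lower in either set. The integrated stress response differed from them in set 2, with 5 of 10 members at least 2-fold lower in luminal-like cells and 1 higher (set 1: 3 lower and 2 higher).

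Derl3 had the highest ratio in both sets. In set 1 it was at 89.4 CPM in luminal-like and 2.29 CPM in basal-like cells, a log2 ratio of 5.28 (95% interval 4.89 to 5.71), and in set 2 at 11.6 and 1.51 CPM, a log2 ratio of 2.93 (95% interval 1.58 to 4.81). Sdf2l1 gave 2.84 (95% interval 2.73 to 2.96) and 2.32 (95% interval 1.77 to 2.93). Nupr1 gave 2.70 and 1.05, and Creb3l4, which passed the filter in set 1 only, gave 3.98 (95% interval 3.04 to 5.11) there. Of the sensors, Ern1 gave 1.37 and 1.73 and Eif2ak3 1.93 and 1.82. Hspa5 gave 0.41 in set 1 and -0.30 in set 2, so that the sign of the best-known member turned between the sets. Xbp1 gave 0.24 and -0.066 and Ddit3 1.25 and 0.48, while Atf4 gave -0.03 and 0.13. The lowest ratios were those of Sesn2 (-1.79 and -2.60), Ddit4 (-1.29 and -1.20), Trib3 (-1.04 and -2.33), Atf5 in set 1 (-0.96), and Asns and Chac1 in set 2 (-2.22 (95% interval -2.33 to -2.10) and -1.59, 95% interval -1.79 to -1.37). Ern2 passed the filter in no comparison of classes, and Creb3l4 in no other than this one and the reporter split of set 1. Secretory products summed to 17758 CPM in luminal-like and 273 CPM in basal-like cells of set 1, and to 2736 and 397 CPM in set 2, and median depth was higher in luminal-like cells of both sets (above). Of 12 immediate early genes, 7 were at least 2-fold higher in luminal-like cells of each set, beside the 24.9% and 29.8% of all genes. The part of these in the ratios was not tested.

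**Figure D3:**
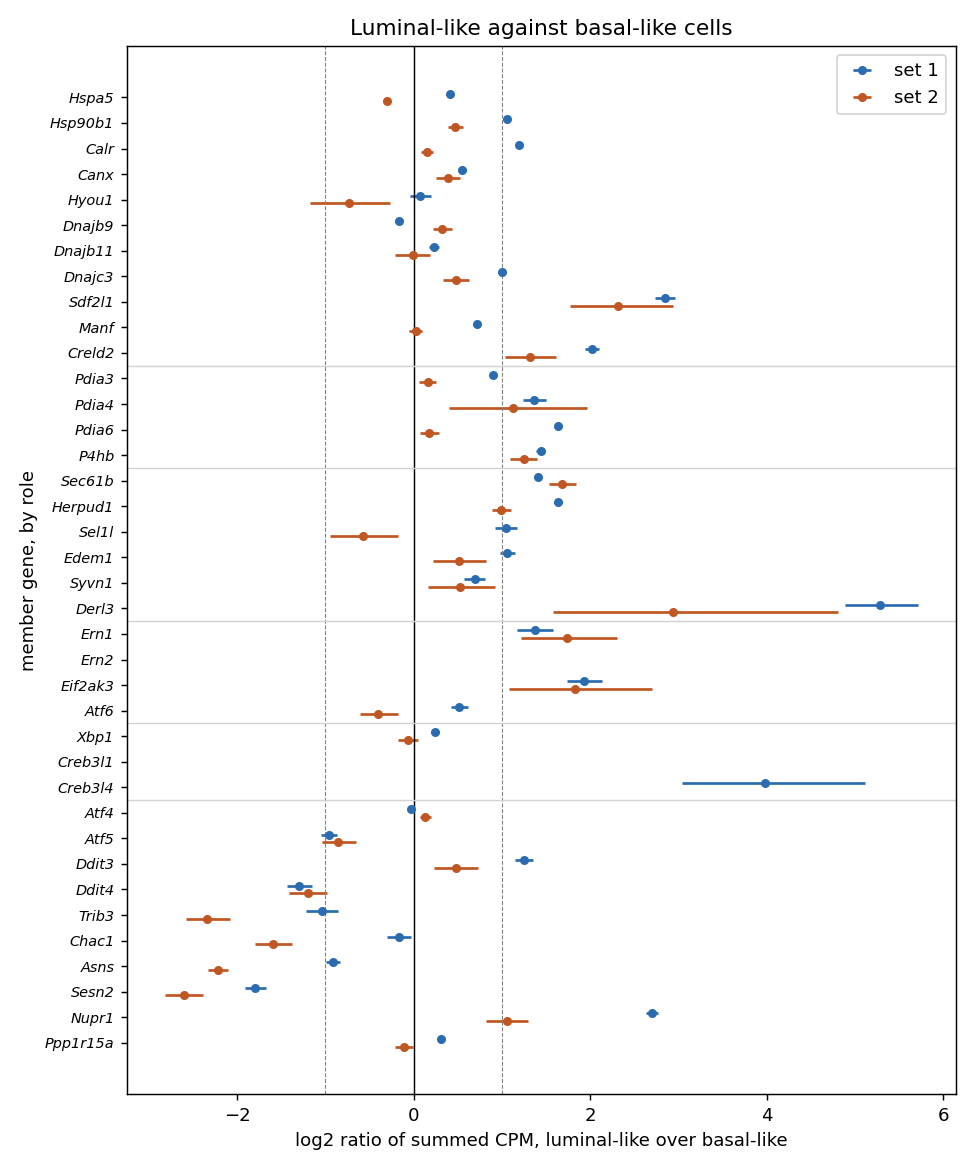
Log2 ratio of summed CPM in luminal-like over basal-like cells for each member that passed 5 CPM (points, set 1 blue, set 2 orange; bars, 95% counting intervals; dashed lines, 2-fold). Chaperones, isomerases and degradation factors lie mostly to the right in set 1 and closer to 0 in set 2, and Sesn2, Trib3 and Asns lie to the left in both.

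The luminal clusters were each set against the other luminal-like cells of the same set. Cluster 5 of set 2 stood out, with 21 of 35 members at least 2-fold higher and 1 lower (11% and 14% of all genes) and a median log2 ratio of 1.30 (all genes 0.035). It was higher by 2-fold or more for 7 of 11 chaperones, 5 of 6 translocation and degradation factors and 5 of 10 integrated stress response members, with log2 ratios of 4.43 for Derl3, 3.91 for Chac1 and 1.30 for Hspa5. Nupr1 was its lower member, at -2.97. In set 1, cluster 8 had 9 of 36 members at least 2-fold higher and none lower (6.28% and 13.5% of all genes), led by Creb3l4, Derl3 and Ddit3 at 2.73, 2.64 and 2.51. Cluster 3 of set 1 had 18 members at least 2-fold lower (9.26% of all genes) and 1, Ppp1r15a at 1.06, higher (7.13%). Cluster 2 of set 1 had 4 higher and 1 lower (3.11% and 7.93%), among the higher Nupr1 at 2.42, and cluster 5 of set 1 had 2 and 2 (2.32% and 6.1%). In set 2, cluster 8 had 6 higher and 0 lower (3.33% and 5.88%), and cluster 3 had 2 and 2 (5.95% and 6.78%). No member was 2-fold higher in clusters 0, 4, 7 or 2 of set 2 (0.411%, 1.56%, 2.54% and 1.52% of all genes), and 6, 4, 1 and 0 were lower (4.42%, 3.88%, 1.29% and 2.48%). Since these sums pool the other clusters, they depend on the make-up of each set.

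The reporter comparison asked whether cells of the recombined lineage differ. Reporter-high cells had an EGFP share of UMIs above the 99th percentile of leukocyte-like cells of the same set, and reporter-low cells were at or below their 75th percentile. The cuts were far apart: above 694 CPM for high and 0 CPM for low in set 1, above 7880 CPM and at or below 641 CPM in set 2, where leukocyte-like cells together carried 1142 CPM of EGFP. In set 1 this gave 419 reporter-high and 1215 reporter-low luminal-like cells, and in set 2 5580 and 175, with 4662 of the 5580 within 2-fold of the cut. ARQ, which was not used for the split, was higher in reporter-high cells, at 702 against 23.3 CPM in set 1 and 1699.8 against 176 CPM in set 2. The sides differed in cluster make-up: 47.0% of reporter-high cells of set 1 were of cluster 2 and 52.1% of reporter-low cells of cluster 3, and in set 2 92.6% of reporter-low cells were of cluster 5. Lineage and cluster therefore cannot be told apart in set 2.

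In set 1, 3 of 36 members were at least 2-fold higher in reporter-high luminal-like cells and none lower, where 3.83% and 3.93% of all genes moved as far, and the median log2 ratio was 0.37 (all genes -0.18). The 3 were Nupr1, at 1881 against 247 CPM (log2 ratio 2.93, 95% interval 2.89 to 2.96), Ddit4 (1.49, 95% interval 1.27 to 1.71) and Trib3 (1.27, 95% interval 1.01 to 1.54). Chac1 followed at 0.98, Creb3l4 gave 0.46, Ddit3 0.48, Hspa5 0.31, Xbp1 0.029 and Atf4 -0.11. The lowest were Ppp1r15a (-0.53), Atf6 (-0.47), Derl3 (-0.22) and Sel1l (-0.15). In set 2, 1 member was higher and 20 of 35 lower (14.8% and 11.9% of all genes), with a median of -1.35 (all genes -0.043). The lowest were Derl3, at 7.0 against 145 CPM (-4.37, 95% interval -4.52 to -4.21), Chac1 (-3.83, 95% interval -3.94 to -3.71), Sel1l (-3.60) and Asns (-2.73), and Hspa5 was at 2081 against 5291 CPM (-1.35). Ddit4 (1.12), Nupr1 (0.87), Ppp1r15a (0.30) and Atf4 (0.064) had the highest ratios, with Ddit3 at 0.046 and Xbp1 at -0.60. The Nupr1 ratio of set 2 turned to -0.37 with the cut at the 95th percentile and to -3.53 without integration. Luminal markers summed to 15912 CPM in reporter-high against 31080.1 CPM in reporter-low cells of set 1 and to 20835 against 22839 CPM in set 2, and their part was not tested. Of 12 immediate early genes, which rise with handling and dissociation, 11 were at least 2-fold higher in the reporter-high cells of set 2 (summed level 14140.2 against 5632 CPM) and 1 in those of set 1, beside the 14.8% and 3.83% of all genes, and the part of this in the ratios was not tested.

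**Figure D4:**
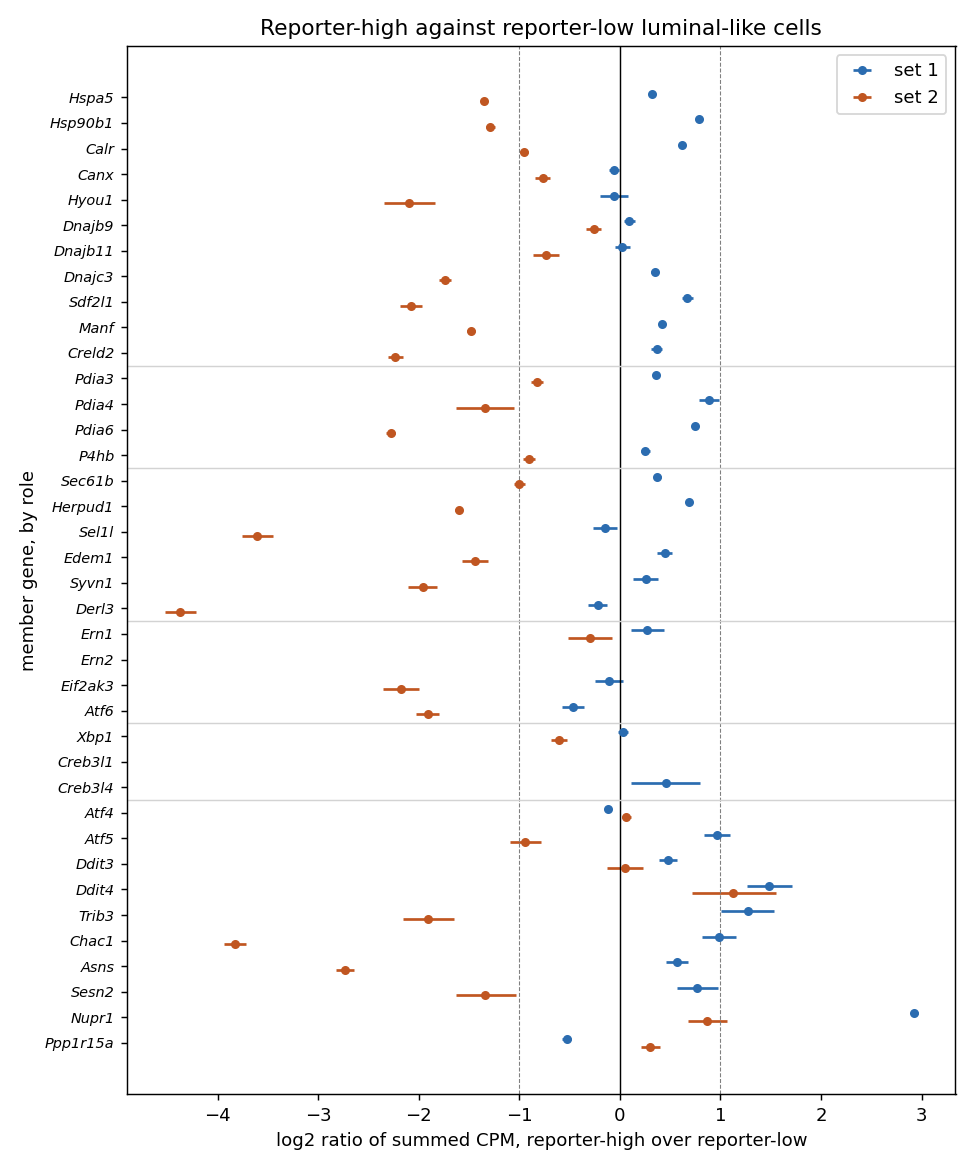
Log2 ratio of summed CPM in reporter-high over reporter-low luminal-like cells for each member that passed 5 CPM (points, set 1 blue, set 2 orange; bars, 95% counting intervals; dashed lines, 2-fold). Most members lie between 0 and 1 in set 1 and left of 0 in set 2, where 92.6% of reporter-low cells came from cluster 5.

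Within single clusters of set 1, clusters 3 and 8 had at least 50 cells on each side of the split, and this comparison was chosen after seeing the data. In cluster 3 (66 reporter-high and 633 reporter-low cells), 0 of 35 members moved 2-fold up and 0 down, beside 1.1% and 0.916% of all genes, and Nupr1 gave 0.32 (95% interval 0.20 to 0.44). In cluster 8 (119 and 147 cells) 2 of 36 were higher and none lower (3.65% and 1.78%). Those were Nupr1, at 2627 against 630.5 CPM (log2 ratio 2.06, 95% interval 2.00 to 2.12), and Sesn2, at 30.2 against 12 CPM (1.33, 95% interval 0.88 to 1.80). Ddit3 (-0.84, 95% interval -0.97 to -0.72) and Derl3 (-0.65, 95% interval -0.77 to -0.53) were lower in the reporter-high cells of that cluster, and Hspa5 gave -0.01. The Nupr1 difference was thus present inside cluster 8 at a log2 ratio over 2 and small inside cluster 3.

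Basal-like cells were split in the same way. In set 1 (486 against 863 cells), 6 of 34 members were at least 2-fold higher and 2 lower (2.62% and 2.92% of all genes), and in set 2 (124 against 156 cells) 4 of 34 higher and 1 lower (4.83% and 4.66%). With the cut at the 95th percentile the counts of set 2 became 1 and 0, and 95 of its 124 reporter-high cells lay within 2-fold of the cut. The chaperones had a median log2 ratio of 0.66 in set 1 and 0.46 in set 2, where the medians of all genes were -0.076 and 0.029. Sdf2l1 stood at 56.5 against 15.9 CPM in set 1 (1.83, 95% interval 1.56 to 2.10) and at 13.6 against 4.68 CPM in set 2 (1.54, 95% interval -0.036 to 3.38). Pdia4 gave 1.31 (95% interval 1.03 to 1.59) and 1.34 (95% interval -0.51 to 3.49), Pdia6 1.27 and 0.67, Creld2 1.20 and 1.04, and Hspa5 0.53 and 0.31. Ern1, at low counts, gave 1.17 (95% interval -0.14 to 2.60) in set 2. The lowest were Ddit4 (-1.15 and -1.59), Sesn2 (-0.70 and -0.74), Chac1 (-0.82 and -0.45) and, in set 1, Trib3 (-1.07). Xbp1 gave 0.14 and 0.44, Ddit3 -0.49 and -0.088, and Atf4 -0.16 and -0.0073, while Nupr1 gave 1.55 (95% interval 1.41 to 1.69) and -0.80 (95% interval -1.38 to -0.24). The Nupr1 ratio of set 2 turned to 0.10 with equal cell weights and to 1.34 with cells split by ARQ UMIs. Luminal markers summed to 7388 CPM in reporter-high and 8145 CPM in reporter-low basal-like cells of set 1 (8556 and 7698 CPM in set 2). Basal markers summed to 9397 against 16881 CPM in set 1 and 8512 against 11121 CPM in set 2. Proximal markers summed to 2148 against 3489.9 CPM and 621 against 837 CPM. These marker levels differed between the sides of the split, and their part in these ratios was not tested.

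The sets were then compared as 2 libraries, within a class and within a cluster. In all luminal-like cells, 1 of 35 members was at least 2-fold higher in set 2 and 16 lower (11.1% and 16.5% of all genes), with a median of -0.76 (all genes -0.15). Derl3 (-2.95), Pdia6 (-2.78, 95% interval -2.79 to -2.77), Nupr1 (-2.43) and Pdia4 (-2.33) were lowest, Hspa5 gave -1.03, Xbp1 -0.32 and Ddit3 -0.32, and Ddit4 (1.24), Ern1 (0.54), Dnajb9 (0.39), Atf5 (0.39) and Atf4 (0.20) were higher. Since luminal-like cells of the sets lay chiefly in different clusters, the sets were also compared within clusters. These shared luminal clusters rest on integration, so the cells of 1 cluster may differ in kind between the sets. Without integration, the Msmb-led cluster held 702 cells of set 1 and 4 of set 2, and the Svs5-led cluster 0 and 1798. The Krt6a-led cluster then held 1190 and 8, and 2 clusters with Tgm4 among their leading genes held 565 and 20, and 5 and 236. In cluster 8, 0 of 36 members were higher in set 2 and 19 lower (9.51% and 13.6% of all genes), and in cluster 2 0 and 15 of 35 (10.4% and 10.2%). Derl3 gave -3.13 in cluster 8, and Pdia6 gave -2.07 (95% interval -2.10 to -2.03) there and -3.15 (95% interval -3.18 to -3.12) in cluster 2. Secretory products differed the same way, at 59535 and 11809 CPM in cluster 8 and 9871 and 3442 CPM in cluster 2 of sets 1 and 2, and their part was not tested.

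Cluster 5 had another pattern. There 6 of 35 members were at least 2-fold higher in set 2 and 2 lower (2.92% and 7.8% of all genes), with a median of 0.048. All 6 belonged to the integrated stress response: Chac1 (3.77, 95% interval 3.59 to 3.96), Trib3 (2.29), Asns (2.25, 95% interval 2.14 to 2.36), Ddit4 (1.80), Atf5 (1.48) and Sesn2 (1.34). Nupr1 (-2.62) and Pdia4 (-1.55) were the lower members, and Atf4 (0.074), Xbp1 (-0.077) and Derl3 (0.048) hardly differed. Basal-like cells, all of cluster 1, shared part of this: 4 of 34 members were higher and 4 lower (2.68% and 6.38%). The higher were Trib3 (1.58, 95% interval 1.29 to 1.86), Chac1 (1.54, 95% interval 1.30 to 1.77), Asns (1.38, 95% interval 1.26 to 1.51) and Ddit4 (1.15, 95% interval 0.91 to 1.39), and the lower were Pdia4 (-2.09), Sdf2l1 (-1.63), Pdia6 (-1.32) and Hyou1 (-1.10). Hspa5 gave -0.32, Xbp1 -0.0086, Nupr1 -0.79, Ddit3 0.46 and Atf4 0.035. In proximal cluster 12 Trib3 (2.30), Asns (2.06), Chac1 (1.89) and Herpud1 (1.57) were the 4 members of 34 at least 2-fold higher in set 2, and 0 were lower (5.82% and 6.16% of all genes). In luminal cluster 3, with 1186 and 176 cells, 5 of 35 were higher and 6 lower (7.32% and 15.5%), among the higher Ddit4 (2.43), Trib3 (2.22), Chac1 (1.80) and Atf5 (1.23), and in the unnamed cluster 10 2 and 0 of 35 (8.03% and 7.07%). Pdia6 was lower in set 2 in each of the 9 clusters compared, with log2 ratios from -3.15 in cluster 2 to -0.36 in cluster 9.

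**Figure D5:**
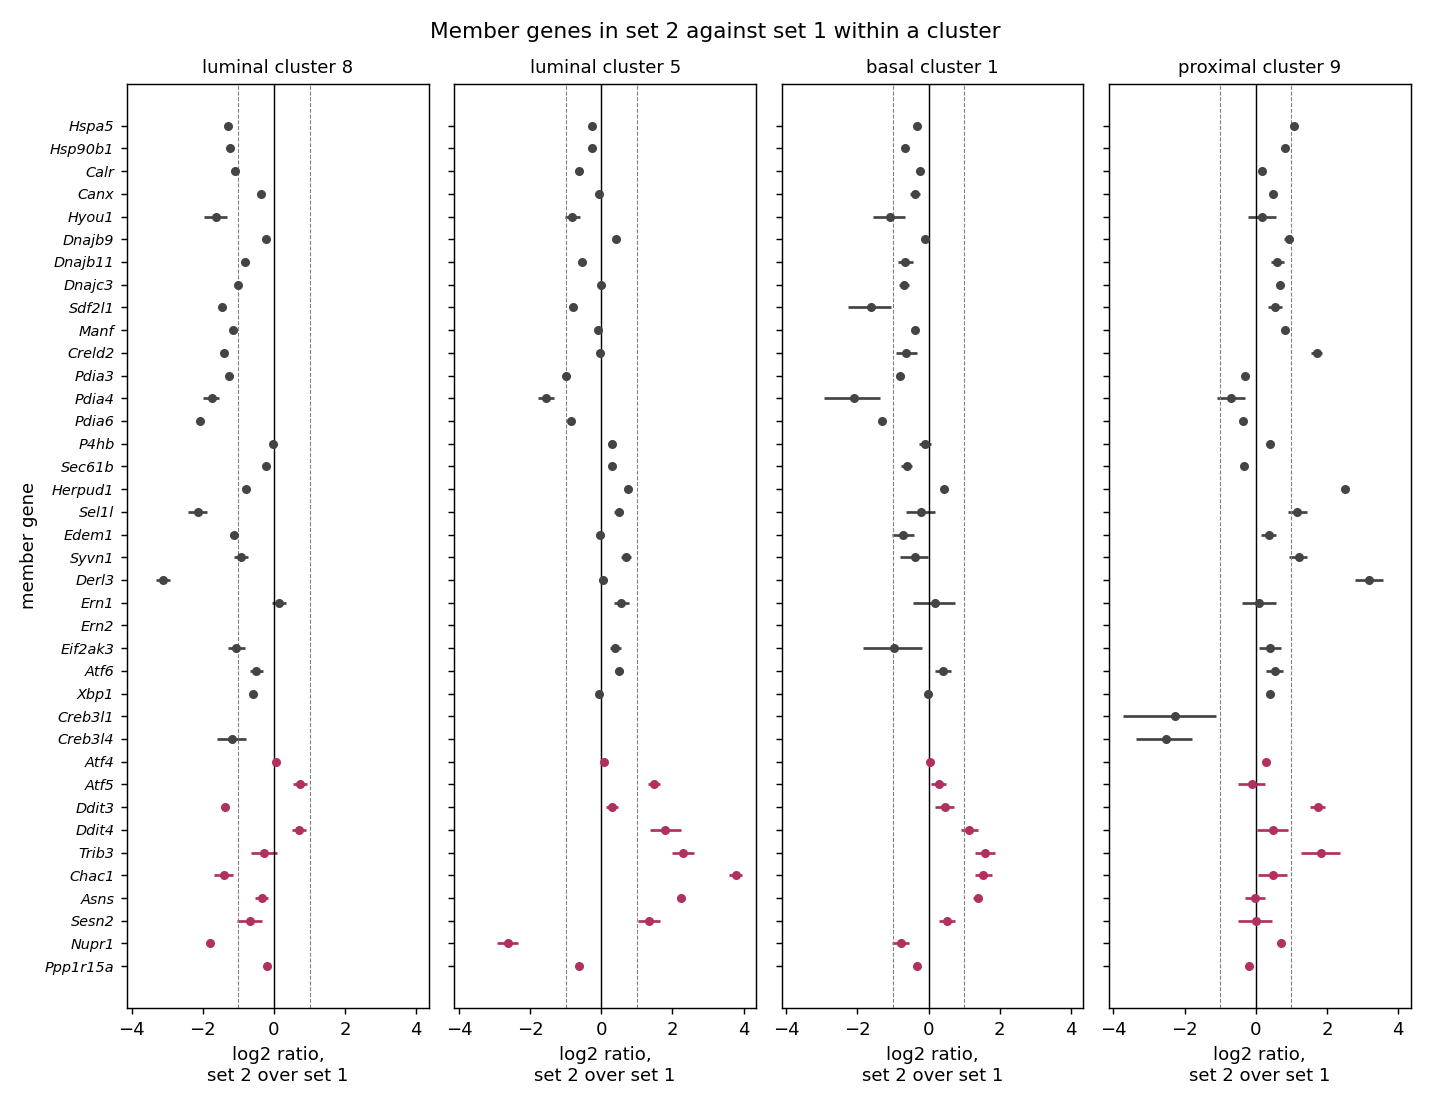
Log2 ratio of summed CPM in set 2 over set 1 within luminal clusters 8 and 5, basal cluster 1 and proximal cluster 9 (points, members that passed 5 CPM, with the integrated stress response in red and the others in grey; bars, 95% counting intervals; dashed lines, 2-fold). Cluster 8 lies mostly left of 0, cluster 5 has 6 integrated stress response members right of the 2-fold line, and cluster 9 lies mostly right of 0.

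In proximal cluster 9, 8 of 37 members were at least 2-fold higher in set 2 and 2 lower (3.61% and 9.09% of all genes). Derl3 (3.19, 95% interval 2.80 to 3.58), Herpud1 (2.51), Ddit3 (1.74), Creld2 (1.70) and Hspa5 (1.07) were among the higher, beside secretory products that summed to 6166 CPM in set 1 and 143956 CPM in set 2. By counting interval, 10 of 11 chaperones were higher in set 2 and 0 lower, and of 6 translocation and degradation factors 5 and 1. Of 10 integrated stress response members 6 were higher and 1 lower. Of the 4 disulfide isomerases 1 was higher and 3 were lower, with a median log2 ratio of -0.33. Creb3l4 (-2.52, 95% interval -3.37 to -1.78) and Creb3l1 (-2.27, 95% interval -3.74 to -1.12) were the members at least 2-fold lower. The part of the secretory products was not tested. Leukocyte-like cells of set 1 lay chiefly in cluster 6 (led by Ccl5) and those of set 2 in cluster 11 (led by Lyz2 and C1qa), and in their sums 0 of 35 members were higher in set 2 and 8 lower (10.7% and 30.5% of all genes). The count of 8 was 15 with doublets kept, 17 at resolution 1 and 16 without integration, and 3 or 4 with equal cell weights, with either other scaling or without cluster 16. Hspa5 turned to a negative ratio with doublets kept, at resolution 1 and without integration, Calr with doublets kept and without integration, and Canx and P4hb without integration. The lowest were Eif2ak3 (-2.01), Asns (-1.94), Derl3 (-1.79) and Hyou1 (-1.43), and the highest P4hb (0.55), Canx (0.47), Calr (0.41) and Atf6 (0.20). Hspa5 gave 0.069, Xbp1 -1.06, Ddit3 -0.091, Nupr1 -1.11 and Atf4 -0.21, and without cluster 16, a comparison chosen after seeing the data, Derl3 was at 0.077. Within cluster 11, 6 of 34 members were at least 2-fold lower in set 2 and none higher (13.9% and 9.45% of all genes).

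Genes of the same pathways that are not members were read in the same way, beside the 24.9% and 29.8% of all genes that were at least 2-fold higher in luminal-like cells of set 1 and set 2 and the 8.35% and 13.9% that were lower. Of 28 further genes of ER entry and folding that passed, 13 in set 1 and 13 in set 2 were at least 2-fold higher in luminal-like than in basal-like cells and none was lower. Dnajc10, an ER reductase with a J domain (4.36), and the prolyl isomerase Fkbp11 (3.30) led in set 1, and Sil1, an exchange factor of BiP (2.83), and Pdia5 (2.52) in set 2. Of 13 further degradation genes, 4 were higher in each set, near the share of all genes, led by Edem2 (3.40 and 2.15) and Erlec1 (2.67 and 1.36). Of the other ATF4 targets and amino acid enzymes, 6 of 19 were lower in luminal-like cells of set 1 and 12 of 18 in set 2, where the cystine transporter Slc7a11 was at 8.87 against 586 CPM. In basal-like cells, set 2 exceeded set 1 by at least 2-fold in 8 of 19 of these genes and fell below it in none, with a median log2 ratio of 0.92 and with Slc7a11 (2.77) and Gdf15 (2.64) highest, where 2.68% and 6.38% of all genes moved as far. The split by reporter in set 2 left 10 of 28 folding genes (Dnajc10 at -4.66) and 8 of 18 ATF4 targets (Slc7a11 at -3.98 and Phgdh at -2.83) at least 2-fold lower in reporter-high luminal-like cells, beside 11.9% of all genes. Over the luminal-like class, 11 cytosolic heat shock genes summed to 8924 CPM in set 1 against 16386 CPM in set 2, and 12 immediate early genes to 7541 against 13504 CPM. Both lists are known to respond to handling of tissue, and their part in the differences between the sets was not tested.

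The members with an ERSE, printed above, were set beside the other members with a promoter entry. Those others include Herpud1 and Dnajb11, which hold an ERSE-II match. Only the exact ERSE was searched, so a member without it may hold another form. Their median log2 ratio in luminal-like over basal-like cells was 1.06 for 9 members with and 0.97 for 24 without in set 1, and 0.47 and 0.16 in set 2. For reporter-high over reporter-low basal-like cells the medians were 0.75 for 8 members with and 0.14 for 23 without in set 1, and 0.53 and 0.18 in set 2. In luminal-like cells this split gave 0.35 with and 0.45 without in set 1, and -1.74 and -0.94 in set 2. For set 2 over set 1 the medians were -0.50 and -0.099 in basal-like cells, and -0.33 and -0.70 in leukocyte-like cells. For set 2 over set 1 in luminal-like cells they were -1.24 and -0.32, with all 9 between -2.95 and -0.54. The ranges of members with and without an ERSE overlapped, from -2.43 to 1.24 for members without an ERSE in the last, and the difference was not tested.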

How the data were processed

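Cells of 2 droplet libraries (10x 3' v2 chemistry) were measured, 1 library per label. Per the submitters' processing notes, reads were processed with Cell Ranger 3.1.0 on mm10. The deposited table holds natural log values that the authors made as ln(1 + 10000 × UMIs / total UMIs of the cell), and 100% of them returned to whole UMIs (tolerance 0.001). The 15742 cell columns name no sample, so their endings 1 and 2 defined the sets. Totals were 134850345 UMIs in set 1 and 187280119 in set 2.

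Doublets were scored with Scrublet in Scanpy 1.11.5. Its automatic threshold called 0 cells, so a score limit of 0.25 was used, which removed 155 and 175 cells (2.45% and 1.86%). Cells were integrated and clustered in Seurat 5.3.0 (2000 variable features, 20 and 30 dimensions, resolution 0.5) without 103 genes: the members, the other stress lists, EGFP and ARQ. A cluster was named from fixed markers when at least 3 were seen. Python 3.11.15 and R 4.3.3 were used, with NumPy 2.4.6, SciPy 1.17.1 and pandas 2.3.3.

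UMIs were summed per group and given as CPM with exact 95% Poisson intervals, ratios with conditional binomial intervals and shares by Clopper-Pearson. These cover counting error only, and the scripts were tested on simulated data. No test was made between single libraries. Named in each comparison were 8 fixed members (Hspa5, Xbp1, Atf4, Ddit3, Nupr1, Derl3, Ern2 and Creb3l4), the 4 highest and the 4 lowest ratios, and the 2 highest and 2 lowest of other lists. Other genes were named by role after their values were seen. The members and lists were chosen with earlier results of these data known. There were 10 fixed alternatives: doublets kept, resolution 1, no integration, equal cell weights, 2 other scalings, no low-value filter, the 95th percentile as reporter cut, a split by ARQ UMIs (5 or more against 0) and thinning to 6000 UMIs. Another 2 were added after seeing the data. The scaling by the trimmed mean of M values was computed directly from the summed counts. Sequences came from RefSeq tables of GRCm38.p6.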

Additional observations from a re-analysis of the deposited data

Results flagged for a closer look

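In luminal-like cells the reporter-high to reporter-low log2 ratios of 4 members, among those named in both sets, had counting intervals on opposite sides of 0 in the 2 sets. Hspa5 was at 0.31 in set 1 and -1.35 in set 2. Chac1 was at 0.98 and -3.83. Ppp1r15a was at -0.53 and 0.30. Atf4 was at -0.11 and 0.064, but each of these signs changed under another scaling, as given below. In set 2, 92.6% of the reporter-low luminal-like cells came from cluster 5, which held high levels of Hspa5 and Chac1. In basal-like cells Nupr1 had opposite signs, at 1.55 in set 1 and -0.80 in set 2, but the value of set 2 was 0.10 with equal cell weights and 1.34 with the split by ARQ UMIs. Thinned to 3000 UMIs, 10.9% and 7.69% of basal-like cells of sets 1 and 2 had a Nupr1 UMI, against 9.71% and 11.6% of leukocyte-like cells. Each set is 1 library, so these differences between the sets were not tested.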

How the results depend on the processing

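Of the counts and shares that answer a comparison, 127 alternative values stayed within 1.5 times or within the interval of the value reported, and 37 did not. Among values of single members, 766 stayed, 251 moved in size and 24 changed sign. No paired analysis was possible because only 1 library carried each label. Depth limits members with few UMIs on a side of a ratio, where an empty sum was set to 3 UMIs. No alternative replaces the missing replicates.

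Counts of members at least 2-fold apart changed as follows. With doublets kept, 1 member was lower in the luminal reporter split of set 1, 2 were lower in the basal split of set 2, and 15 were lower in set 2 leukocyte-like cells. At resolution 1 the basal split of set 1 had 1 lower and leukocyte-like cells 17. Without integration 11 members were higher in luminal-like than in basal-like cells of set 1, 0 were lower in the basal split of set 1, and 16 were lower in leukocyte-like cells. With equal cell weights 5 were lower in luminal-like cells of set 1 and 3 in leukocyte-like cells. Scaling without genes over 1% of UMIs left 4 lower in leukocyte-like cells. With the trimmed mean of M values 5 were lower in luminal-like cells of set 1, 5 and 2 were higher in the luminal reporter splits of sets 1 and 2, and 4 were lower in leukocyte-like cells. With no filter 1 was higher in leukocyte-like cells. With the 95th percentile 0 were higher in the luminal split of set 2, and 1 was higher and 0 lower in the basal split of set 2. The split by ARQ UMIs gave 5 and 2 higher in the luminal splits of sets 1 and 2 and 1 lower in the basal split of set 1. Chosen after seeing the data, leukocyte-like cells without the Jchain-led cluster had 3 lower, and the split within cluster 3 had 0 higher.

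Signs changed as follows. In leukocyte-like cells Calr was at -0.14 and Hspa5 at -0.14 with doublets kept, Hspa5 was at -0.13 at resolution 1, and Calr, Canx, Hspa5 and P4hb were at -0.16, -0.14, -0.28 and -0.32 without integration. Atf4 was at 0.16 there with the trimmed mean of M values, and Derl3 at 0.077 (-1.79 with it) without the Jchain-led cluster. In the luminal split of set 2, Nupr1, reported at 0.87, was at -3.53 without integration and -0.37 with the 95th percentile, and Atf4 at -0.0044 without genes over 1% of UMIs. In that of set 1, Atf4 was at 0.00059 with the trimmed mean of M values and Sel1l at 0.017 with the 95th percentile. In the basal split of set 2, Nupr1, reported at -0.80, was at 0.10 with equal cell weights and 1.34 with the ARQ split. Within cluster 3 Atf6, Ddit3, Derl3 and Sel1l were at 0.043, -0.015, 0.35 and 0.065, and within cluster 8 Creb3l4, Ddit3, Hspa5 and Ppp1r15a at -0.35, -0.84, -0.010 and 0.33.

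Thinning to 6000 UMIs gave Nupr1 shares of 31.3% and 25.1% in luminal-like, 17.4% and 14.4% in basal-like and 19.9% and 17.4% in leukocyte-like cells of sets 1 and 2. Ddit3 shares were 23.8% and 30.5%, 19.9% and 23.8%, and 51.7% and 51.6%, and Ern2 was seen in 0.163% of luminal-like cells of set 1. Without integration the luminal split of set 1 was not run, since it held 47 against 1328 cells. The cause of these changes was not tested.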
